A study of Mus musculus with 24 samples.

Results

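The infarct area of vehicle-treated mouse hearts at 168 h of reperfusion was compared with the same area at 48 h, to describe across genes how the tissue differed between the inflammatory and the scar-forming stage of repair. Samples were chosen by their titles: 4 vehicle hearts at 168 h and 4 vehicle hearts at 48 h, which made 8 of the 24 samples of the series. All 24 came from male C57BL6/J mice, an inbred strain, whose left anterior descending coronary artery had been closed with a snare for 45 min and then reopened. The mice of the 8 chosen samples had received PBS with 0.1% BSA as vehicle. The design text gives the vehicle as the content of an osmotic minipump. The other 16 samples were 4 vehicle hearts at 24 h and 4 hearts each at 24, 48 and 168 h from mice given recombinant IGF1, a growth factor, as a bolus of 40 ng/g followed by 1 µg/g per day from a pump over the first 3 days. The design text calls the controls sham-operated, whereas the label of every vehicle sample names 45 min of ischemia, and the labels were followed. The labels do not name the animals, so a heart here means 1 sample. The p-values therefore speak only for the spread among these arrays.

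Each sample was total RNA from the anterior wall's area at risk, which holds surviving and dead muscle, vessels, scar and infiltrating cells. In such bulk tissue fewer cells of a type and less RNA per cell cannot be told apart. As background, an infarct is first entered by neutrophils, which are drawn in by CXC chemokines and release granule proteins, and then by monocytes, which follow CC chemokines and become macrophages that clear dead muscle. Fibroblasts then divide, turn into myofibroblasts and lay down collagen. In a maturing scar, fibroblasts express proteoglycans and matrix genes that are otherwise typical of tendon, cartilage and bone.

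Levels are given as log2 of the Cy3 signal minus the log2 of the array's 75th percentile, so that 0 is the 75th percentile, and a difference of 1 between 168 h and 48 h is 2-fold. A gene was represented by its brightest probe. Of 15875 genes tested with limma, 8459 (53.3%) passed an adjusted p of 0.05. Of these, 4147 (26.1% of the genes tested) were higher at 168 h and 4312 (27.2%) were lower. With a change over 2-fold as well, 1172 genes (7.38%) were higher and 936 (5.9%) were lower, and over 8-fold these were 90 and 64 genes. The values of the 4 hearts at 168 h all lay above those of the 4 hearts at 48 h for 3225 genes (20.3%) and all below for 3728 (23.5%). Because 53.3% of genes passed the test, the counts of gene groups below are read against these shares, and the sizes of the changes are given beside them. Some members of the gene groups were well above background at only 1 of the times, and these could hardly be counted in the other direction. The median difference over all genes was 0.026.

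Over the genes tested the arrays correlated at 0.983 to 0.991 within the 168 h group and 0.985 to 0.992 within the 48 h group, and at 0.944 to 0.966 between the groups. Between 55.7% and 62.9% of spots were well above background on the 168 h arrays and 53.4% to 58.9% on the 48 h arrays. The arrays lay on 4 slides that were scanned on 2 days, and the groups were spread over them unevenly: 3 arrays at 168 h and 2 at 48 h were scanned on day 1, and 1 array at 168 h and 2 at 48 h on day 2. Of the 2108 called genes that changed over 2-fold, 2108 had the same direction within day 1 and 2107 within day 2. On the only slide that held an array of each group, 2091 had it. The genes were called on these same arrays, so such agreement was largely fixed in advance and is no separate check. On day 1 all arrays at 168 h lay on slide 1 and those at 48 h on slide 2, so slide and time cannot be told apart there. The heart muscle gene Myh6, the main adult myosin heavy chain, stood at 7.77, 7.90, 7.98 and 8.30 in the 168 h hearts, against 7.84, 7.83, 8.21 and 8.33 in the 48 h hearts, high on every array.

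Genes of neutrophils were among the largest decreases. Of 22 neutrophil genes tested, 17 fell (27.2% of all genes did), 1 rose and 4 did not pass, with a median difference of -2.18. The gene that rose was Padi4, which opens chromatin for extracellular traps (0.73), and its call was lost with the mean of its probes, with array weights and without replicate 1 at 168 h. S100a8 and S100a9 encode the subunits of calprotectin, the main cytosolic protein of neutrophils. The level of S100a8 was -0.63, -3.64, -2.68 and 1.72 in the 168 h hearts, against 4.96, 4.55, 5.33 and 4.21 in the 48 h hearts. The groups did not overlap, but the hearts at 168 h spread widely, with replicate 4 highest and replicate 2 lowest. The log2 difference was -6.07 ± 0.75 (SE, adjusted p = 1.23e-06), that is 67.1-fold lower, and it lay between -7.08 and -5.29 when 1 array was left out. S100a9 fell by the same order, with a log2 difference of -5.91 ± 0.83 (SE, adjusted p = 5.57e-06). Cxcr2, the receptor for the neutrophil-attracting CXC chemokines, fell with a log2 difference of -5.39 ± 0.88 (SE, adjusted p = 3e-05), although only 2 of the 4 arrays at 168 h were well above background for it. Il1r2, the decoy receptor for IL-1, fell by 4.61 on the log2 scale, Mmp8 (neutrophil collagenase) by 3.92 (well above background on 3 of 4 arrays at 168 h) and Lcn2 (a granule protein that binds bacterial siderophores) by 3.76.

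The decrease did not extend to every neutrophil gene. Ly6g, which defines mouse neutrophils, stood at -0.51, -0.47, -0.59 and -0.31 in the 168 h hearts, against -0.62, -0.73, -0.64 and -0.43 in the 48 h hearts, and the groups overlapped (log2 difference 0.13 ± 0.15 (SE, adjusted p = 0.481)). Camp, a granule protein made during neutrophil maturation, also overlapped, with means of -3.92 ± 0.20 (SD, n = 4) at 168 h and -3.74 ± 0.26 (SD, n = 4) at 48 h. The neutrophil group differed between scan days. Its median difference was -2.63 among the arrays of day 1, -0.85 among those of day 2 and -0.44 on the slide that held both groups. The array at 168 h that was scanned on day 2 was replicate 4, which had the highest S100a8 level of its group, and the part of the scan day in this was not tested.

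All 5 tested CXC chemokines that attract neutrophils fell, with a median of -3.92. Cxcl1, a ligand of Cxcr2 made by stressed and inflamed tissue, stood at -0.43, -1.17, -1.39 and -0.44 in the 168 h hearts, against 2.79, 2.93, 3.46 and 2.94 in the 48 h hearts. The groups were separated by more than 3 log2 units, with a log2 difference of -3.89 ± 0.25 (SE, adjusted p = 5.77e-10). Cxcl5, another Cxcr2 ligand, fell to 0.08 ± 1.41 (SD, n = 4) in the 168 h hearts, against 4.0 ± 0.38 (SD, n = 4) in the 48 h hearts, a difference of -3.92. Cxcl2 fell by 3.51 and Cxcl3 by 5.92 on the log2 scale, but at 168 h they were well above background on only 2 and 1 of 4 arrays. Ppbp, a chemokine stored in platelet granules, fell by 5.42.

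The regions before the starts of Cxcl1, Cxcl2 and Cxcl3 are shown because these neighbouring genes fell together and share a match to the kappaB motif, searched here in a strict form with 1 free base, which is bound by NF-kappaB, a transcription factor of inflammatory genes. The sequences are from RefSeq on build GRCm38.p6, run from 250 bases before to 50 bases after the start and are given on the strand of the gene, with the match in capitals. They lie at chr5:90890995-90891294, chr5:90903649-90903948 and chr5:90785851-90786150, all on the plus strand.
Cxcl1: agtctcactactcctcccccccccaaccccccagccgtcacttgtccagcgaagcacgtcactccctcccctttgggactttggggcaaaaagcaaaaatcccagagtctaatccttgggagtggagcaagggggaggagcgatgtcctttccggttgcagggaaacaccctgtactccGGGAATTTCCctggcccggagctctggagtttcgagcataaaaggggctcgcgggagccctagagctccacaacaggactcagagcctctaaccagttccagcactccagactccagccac
Cxcl2: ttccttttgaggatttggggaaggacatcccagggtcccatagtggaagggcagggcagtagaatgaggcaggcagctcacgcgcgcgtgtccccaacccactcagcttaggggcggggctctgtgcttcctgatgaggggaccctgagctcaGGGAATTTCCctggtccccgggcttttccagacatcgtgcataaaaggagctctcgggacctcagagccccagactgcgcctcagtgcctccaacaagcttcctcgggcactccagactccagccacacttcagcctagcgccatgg
Cxcl3: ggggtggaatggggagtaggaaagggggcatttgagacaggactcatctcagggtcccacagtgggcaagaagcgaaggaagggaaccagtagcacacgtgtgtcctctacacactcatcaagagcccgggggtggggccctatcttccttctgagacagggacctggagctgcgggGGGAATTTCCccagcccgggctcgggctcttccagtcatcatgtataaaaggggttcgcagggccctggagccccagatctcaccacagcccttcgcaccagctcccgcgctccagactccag
The match, GGGAATTTCC, is the same in all 3 regions and begins 71, 97 and 73 bases before the start. It was found on either strand in 3 of the 5 windows of this group and in 0.411% of all 32851 windows of that length. The motif is contained in a wider form that was also among the 17 motifs searched on both strands of the windows of 12 gene groups. The motifs printed here were picked after their shares had been seen, and a match is a description only.

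**Figure D1:**
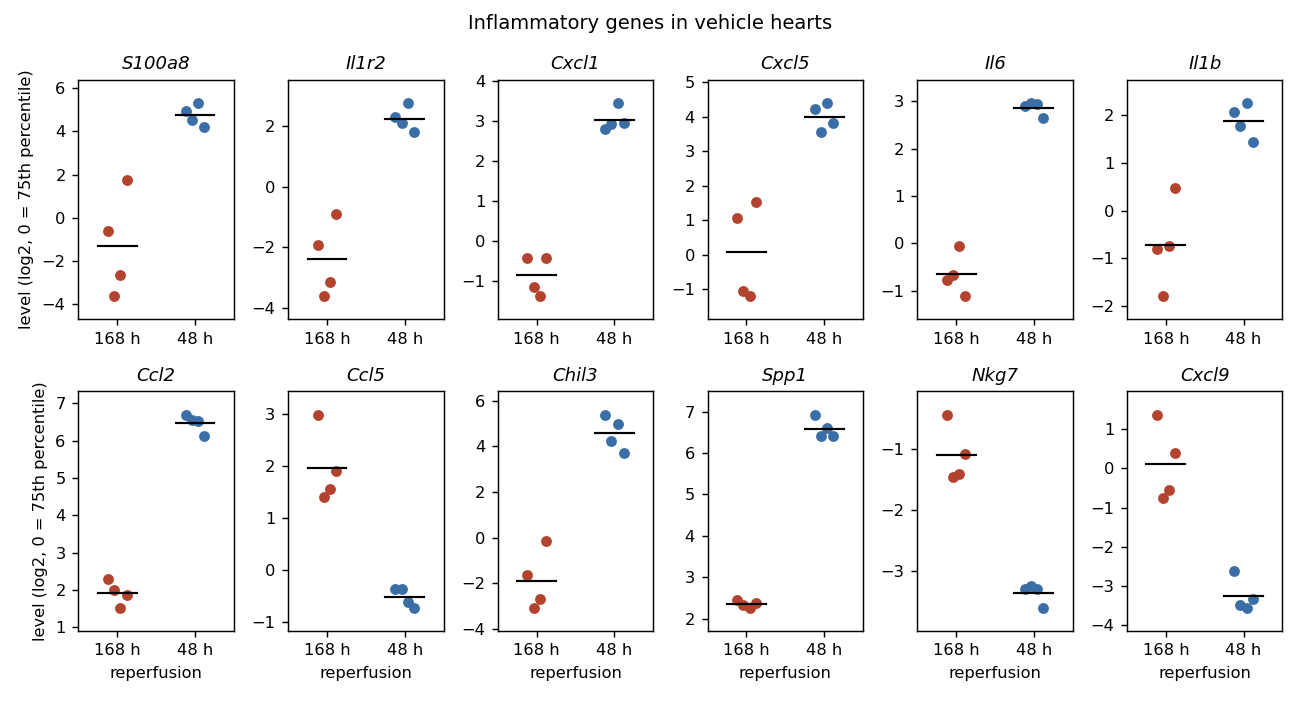
Level (log2 signal relative to the array's 75th percentile) of 12 inflammatory genes in each vehicle heart, 168 h left of 48 h; each point is 1 heart and the line is the mean of 4. The groups do not overlap in any panel, and the 168 h hearts of S100a8 spread from -3.64 to 1.72.

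Of 13 inflammatory cytokine genes tested, 11 fell and none rose, with a median of -2.34. Il6, a cytokine that drives the acute phase response, stood at -0.77, -0.66, -0.05 and -1.11 in the 168 h hearts, against 2.91, 2.97, 2.94 and 2.64 in the 48 h hearts. Every heart at 168 h lay more than 2 log2 units below every heart at 48 h, with a log2 difference of -3.51 ± 0.34 (SE, adjusted p = 5.39e-08). Il11 and Osm, which signal through the same shared receptor subunit as Il6, fell by 3.04 and 2.86 on the log2 scale. Il1b fell by 2.59 and its antagonist Il1rn by 3.62, and Ptgs2, the inducible prostaglandin synthase, fell by 2.34. Nos2, the inducible nitric oxide synthase, did not pass, with a difference of -0.14. Tnf fell by 0.72 only, with an adjusted p of 0.0235 that missed 0.05 without replicate 3 at 168 h, without replicate 2 at 48 h, with the 8 arrays alone and with the slide as a block.

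Of 16 CC chemokine and receptor genes, 12 fell and 1 rose. Ccl2, the main chemokine that draws Ccr2-bearing monocytes out of the bone marrow and into tissue, had levels of 2.30, 2.01, 1.53 and 1.86 in the 168 h hearts, against 6.70, 6.55, 6.52 and 6.13 in the 48 h hearts. The groups were far apart and each was tight, with a log2 difference of -4.55 ± 0.29 (SE, adjusted p = 4.94e-10). Ccl7, which also binds Ccr2, fell by 4.96 on the log2 scale, Ccl12 by 1.99, Ccl9 by 2.99 and Ccl6 by 2.97. Ccr2 itself fell by 1.04. The gene that moved the other way was Ccl5, a chemokine made by T cells and NK cells among others. Ccl5 stood at 2.99, 1.41, 1.56 and 1.91 in the 168 h hearts, against -0.35, -0.35, -0.60 and -0.71 in the 48 h hearts. It was higher in all 4 hearts at 168 h than in any heart at 48 h, with a log2 difference of 2.47 ± 0.26 (SE, adjusted p = 1.83e-07).

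Monocyte and macrophage genes moved in both directions. Of 18 genes of inflammatory monocytes, 9 fell and 2 rose, and their median was -0.995 among the arrays of scan day 1 and -0.271 among those of day 2. The day 2 value rests on replicate 4 as the only array at 168 h. The mean level of the group was 2.49, 0.91, 0.84 and 2.50 in the 168 h hearts, so that replicate 1, scanned on day 1, stood level with replicate 4. Chil3, a secreted lectin of alternatively activated macrophages and neutrophils, had levels of -1.64, -3.06, -2.67 and -0.15 in the 168 h hearts, against 5.39, 4.24, 4.99 and 3.71 in the 48 h hearts. It showed one of the largest decreases, -6.46 ± 0.71 (SE, adjusted p = 2.67e-07) on the log2 scale, with no overlap between the groups. Arg1, the arginase of alternatively activated macrophages, stood at 0.88, -4.11, -4.97 and 1.49 in the 168 h hearts, against 3.54, 3.04, 3.15 and 2.78 in the 48 h hearts. At 168 h the hearts formed 2 pairs, with replicates 1 and 4 high and replicates 2 and 3 low, and 3 of the 4 were well above background. Its log2 difference of -4.80 ± 0.95 (SE, adjusted p = 0.000244) lay between -5.86 and -3.71 with 1 array left out. Saa3, an acute phase protein of macrophages and stroma, showed the same 2 pairs more widely. Its levels were 6.52, -0.38, -1.62 and 5.38 in the 168 h hearts, against 2.87, 2.24, 2.26 and 1.64 in the 48 h hearts, so that the 168 h hearts lay on both sides of the 48 h hearts and no difference passed the test (adjusted p = 0.9). The 2 rising genes were the receptor genes Csf1r, needed for macrophage survival (0.50), and Itgam, an integrin of myeloid cells (0.63), whose call was lost with the mean of its probes.

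Genes of resident macrophages had a median of 0.07, where 26.1% of all genes were higher and 27.2% lower. Of the 21 tested, 4 were higher, 8 were lower and 9 did not pass. Among the lower ones were Cbr2 (-1.61), the mannose receptor Mrc1 (-1.14), the hemoglobin scavenger receptor Cd163 (-1.38) and Lyve1 (-0.87), a hyaluronan receptor. Among the higher ones were Igf1, the growth factor itself (1.06), Pltp, a phospholipid carrier (1.78), and Gas6, a bridging ligand for the uptake of dead cells (0.94). Of 21 genes of lipid-handling macrophages, 11 fell and 3 rose. Spp1 (osteopontin), which repair macrophages secrete, stood at 2.46, 2.33, 2.26 and 2.37 in the 168 h hearts, against 6.93, 6.41, 6.61 and 6.41 in the 48 h hearts. The hearts at 168 h lay more than 3 log2 units below every heart at 48 h (log2 difference -4.23 ± 0.47 (SE, adjusted p = 3.23e-07)). Hmox1, which degrades heme, fell by 3.68, Plin2, a coat protein of lipid droplets, by 1.90, and Lgals3 (galectin-3) by 1.63. Apoe, the lipid carrier, rose by 1.16, and Ctsk, a collagen-degrading cathepsin, by 1.66. The general macrophage marker Cd68 fell by 1.52, whereas Adgre1, which encodes another surface marker of macrophages, did not pass, with means of 3.26 ± 0.30 (SD, n = 4) at 168 h and 3.07 ± 0.19 (SD, n = 4) at 48 h.

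Lymphocyte genes moved mostly upward, except for those of B cells. Of 18 genes of T and NK cells, 12 rose (26.1% of all genes did) and none fell, with a median of 1.19. For 4 of the 18, no probe was well above background on any array of 1 of the times. Nkg7, a granule protein of cytotoxic cells, stood at -0.43, -1.45, -1.41 and -1.08 in the 168 h hearts, against -3.29, -3.25, -3.30 and -3.60 in the 48 h hearts. The groups did not overlap, and the log2 difference was 2.27 ± 0.21 (SE, adjusted p = 2.93e-08). Il2rb, a chain of the IL-2 receptor, rose by 2.30 (well above background on 3 of 4 arrays at 48 h), the granzyme gene Gzma by 1.49, Zap70, a kinase of the T cell receptor, by 1.41 and Lck by 0.88. Prf1, the pore-forming protein of the same cells, did not pass, with a difference of -0.16. Among the others that did not pass were Cd3e (-0.10), Cd4 (0.08), Cd28 (0.05) and Cd7 (0.21), well above background on all arrays of both times. By contrast, Cd3d rose by 0.97. Cd8a, Ctla4, Foxp3, Ncr1 and Ifng were not tested. Among 10 B cell genes 1 rose and 3 fell. The riser was Jchain, which joins secreted antibodies and marks plasma cells, with levels of -1.26, -2.71, -2.21 and -0.74 in the 168 h hearts, against -6.46, -4.68, -3.96 and -7.13 in the 48 h hearts. It was well above background on all 4 arrays at 168 h and on 1 of 4 at 48 h, with a log2 difference of 3.83 ± 0.83 (SE, adjusted p = 0.0006). Pax5, a transcription factor of B cells, was among those that fell (-1.28, well above background on 2 of 4 arrays at 168 h).

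Most genes of antigen presentation, the interferon response and complement rose. Of 16 genes of dendritic cells and MHC class II, 11 rose and 1 fell. The class II chains H2-Aa, H2-Ab1 and H2-Eb1 rose by 1.85, 1.55 and 1.70 on the log2 scale, their invariant chain Cd74 by 1.53 and their shared activator Ciita by 1.39. The member that fell was Itgax (-0.92), an integrin of dendritic cells and macrophages. Of 23 interferon-stimulated genes, 18 rose, none fell and 5 did not pass. Cxcl9, a chemokine induced by interferon gamma that draws T cells, stood at 1.38, -0.75, -0.55 and 0.40 in the 168 h hearts, against -2.62, -3.48, -3.56 and -3.35 in the 48 h hearts. The lowest heart at 168 h lay above the highest at 48 h, with a log2 difference of 3.38 ± 0.42 (SE, adjusted p = 1.31e-06). Gbp2 and Gbp3, guanylate-binding proteins, rose by 1.87 and 1.96, Ifit3 by 1.57 and the transcription factor Irf7 by 1.28. Oas3, a sensor of double-stranded RNA, did not pass (0.28).

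The regions before the starts of Ifit3 (chr19:34583279-34583578, plus strand) and Gbp2 (chr3:142620413-142620712, plus strand), from RefSeq on build GRCm38.p6, are shown for the core of the interferon-stimulated response element, in capitals, which was searched with 2 free bases.
Ifit3: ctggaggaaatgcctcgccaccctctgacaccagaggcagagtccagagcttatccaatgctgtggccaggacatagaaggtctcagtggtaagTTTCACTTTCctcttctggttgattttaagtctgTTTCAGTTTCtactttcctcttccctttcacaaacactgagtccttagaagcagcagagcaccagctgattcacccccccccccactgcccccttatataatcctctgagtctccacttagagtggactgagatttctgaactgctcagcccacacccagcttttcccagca
Gbp2: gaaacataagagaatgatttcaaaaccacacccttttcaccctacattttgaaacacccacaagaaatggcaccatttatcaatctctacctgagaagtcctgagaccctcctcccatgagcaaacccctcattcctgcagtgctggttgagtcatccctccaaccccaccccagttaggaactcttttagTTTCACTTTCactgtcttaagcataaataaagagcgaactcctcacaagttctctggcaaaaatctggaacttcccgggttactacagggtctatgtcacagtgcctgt
Ifit3 has 2 matches, TTTCACTTTC and TTTCAGTTTC, and Gbp2 has 1, TTTCACTTTC. The search covered both strands, and the motif, which is contained in a longer one also searched, was present in 12 of 20 windows of the interferon-stimulated genes and in 3.44% of all windows.

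Of 14 complement genes, 10 rose and 3 fell. C2 and Cfb, the proteases of the classical and the alternative pathway, rose by 3.30 and 2.64, C4b by 2.64, C1s1 by 1.79 and C3, the central component, by 1.72. Serping1, the C1 inhibitor, also rose, by 1.91. The 3 that fell were Cfp (properdin), which myeloid cells store (-1.91), and the anaphylatoxin receptors C5ar1 (-1.74) and C3ar1 (-1.0).

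Genes of cell division fell almost without exception. All 26 tested genes of DNA replication fell, each by more than 2-fold, with a median of -1.48 (27.2% of all genes fell, and 5.9% by over 2-fold). Of 24 genes of mitosis 22 fell, with a median of -1.51. Plk1, a kinase that drives entry into mitosis, stood at 0.43, 1.08, 0.55 and 0.60 in the 168 h hearts, against 2.93, 2.83, 2.55 and 2.28 in the 48 h hearts. Every heart at 168 h lay below every heart at 48 h, with a log2 difference of -1.99 ± 0.37 (SE, adjusted p = 0.000139). Uhrf1, which keeps DNA methylation through replication, fell by 2.34, Mcm5, a subunit of the replicative helicase, by 1.99, Rrm2, which makes deoxynucleotides, by 1.83, the mitotic cyclin Ccnb2 by 1.42, Birc5 (survivin) by 1.97 and the proliferation marker Mki67 by 1.36. Cenpa, the histone of centromeres, did not pass (-0.23).

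The regions before the starts of Plk1 (chr7:122159185-122159484, plus strand) and Ccnb2 (chr9:70421505-70421804, minus strand) are shown, again from RefSeq on build GRCm38.p6, because mitotic genes share 2 elements that the MuvB and NF-Y complexes bind. The capitals mark TTTGAA, the cell cycle homology region, and CCAAT, on either strand.
Plk1: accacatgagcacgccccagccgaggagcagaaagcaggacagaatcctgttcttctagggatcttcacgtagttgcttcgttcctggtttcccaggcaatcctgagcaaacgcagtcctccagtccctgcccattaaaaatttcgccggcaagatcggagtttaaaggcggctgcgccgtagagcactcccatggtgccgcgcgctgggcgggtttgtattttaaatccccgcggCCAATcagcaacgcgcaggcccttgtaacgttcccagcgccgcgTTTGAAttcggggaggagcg
Ccnb2: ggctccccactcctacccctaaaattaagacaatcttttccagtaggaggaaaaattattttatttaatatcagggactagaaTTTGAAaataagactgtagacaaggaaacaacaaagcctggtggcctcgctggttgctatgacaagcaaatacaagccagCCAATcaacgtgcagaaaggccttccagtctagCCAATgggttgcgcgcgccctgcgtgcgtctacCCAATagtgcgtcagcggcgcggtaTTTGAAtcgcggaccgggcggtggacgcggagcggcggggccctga
CCAAT is also the start of 2 longer motifs among the 17. Plk1 has 1 match of each, and Ccnb2 has 2 of TTTGAA and 3 of CCAAT. The element TTTGAA was present in 14 of 20 windows of the mitosis group and in 17.9% of all windows, and CCAAT in 18 of 20 and in 37.4%. In the 27 windows of the DNA replication group TTTGAA was present in 3 and CCAAT in 15.

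All 18 tested genes of ribosome biogenesis fell, with a median of -1.02. Myc, the transcription factor that raises growth genes, stood at -1.48, -1.5, -1.5 and -1.55 in the 168 h hearts, against 0.51, 0.57, 0.39 and 0.32 in the 48 h hearts. The replicates of each group lay close together, and the log2 difference was -1.95 ± 0.15 (SE, adjusted p = 2.71e-09). Nop58, a core protein of nucleolar RNA-modifying particles, fell by 1.46 and Nolc1 by 1.44. Of 17 chaperone and endoplasmic reticulum stress genes 14 fell, with a median of -1.04, among them Sdf2l1 (-2.13), Manf (-1.44) and Hspa5, the main chaperone of the endoplasmic reticulum (-1.13). Ddit3, a stress-induced transcription factor of cell death, rose by 0.57, a call that ended with the slide as a block. Of 16 immediate early genes 7 fell, 1 rose and 8 did not pass. Fosl1, an AP-1 subunit, was not well above background on any array at 168 h and was so on all 4 at 48 h, which put it at least 12-fold lower (adjusted p = 8.36e-10). Such bounds set the mean of the brighter group against, on each array of the dimmer group, the higher of the lowest signal well above background and the gene's own signal. They hold for the scanner's background-subtracted signal. With normexp background correction and an offset of 50, which draws dim signals together, Fosl1 was 4.37-fold lower, and all 12 bounds given here were undercut, with folds of 1.59 to 12.3. Fos fell by 1.3 and Junb by 1.21, whereas Klf4 rose by 1.06.

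Antioxidant and metal-binding genes fell in 10 and rose in 3 of 14, with Mt2, a metallothionein, lower by 1.38 and Txnrd1, which reduces thioredoxin, lower by 1.31. Slc7a11, the cystine importer, was not well above background at 168 h and was at least 3.92-fold lower than at 48 h (adjusted p = 2.12e-06). Among glycolysis genes 7 of 17 fell (4 with quantile normalization), including the glucose carrier Slc2a1 (-1.11) and the lactate carrier Slc16a3 (-1.12). Of 18 genes of hypoxia and vessel growth 4 fell and 5 rose, with a median of -0.026. These counts lay near the shares over all genes, 27.2% lower and 26.1% higher. Angptl4, an inhibitor of lipoprotein lipase, fell by 2.15, and the vessel growth factors Pgf and Apln by 1.86 and 1.76. Ptn (pleiotrophin), a heparin-binding growth factor, stood at 4.33, 3.59, 3.87 and 4.24 in the 168 h hearts, against -0.23, 0.10, -0.15 and -0.61 in the 48 h hearts. Every heart at 168 h lay above every heart at 48 h, with a log2 difference of 4.23 ± 0.36 (SE, adjusted p = 1.22e-08). Its homolog Mdk (midkine) rose by 3.08 with a standard error of only 0.14.

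Genes of blood cells carried in vessels were also lower. Of 7 platelet genes 5 fell and 1 rose, and Pf4, a chemokine of platelet granules, fell by 3.04 (adjusted p = 2.71e-10). Of 9 erythrocyte genes 6 fell and 3 did not pass, with a median of -2.61, which was -2.18 among the arrays of scan day 1 and -4.32 among those of day 2. The hemoglobin gene Hba-a1 stood at 3.77, 4.45, 8.25 and 3.51 in the 168 h hearts, against 7.88, 7.96, 7.64 and 8.06 in the 48 h hearts. Replicate 3 at 168 h lay above all hearts at 48 h and the other three at 168 h lay far below them, and the groups overlapped for each of the 9 genes. The log2 difference of -2.89 ± 0.75 (SE, adjusted p = 0.00272) lay between -3.97 and -2.39 with 1 array left out. Siglecf, a marker of eosinophils, fell by 3.73 on the log2 scale. The other 5 tested genes of its group, Cpa3, Mcpt4, Tpsb2, Cma1 and Fcer1a, are mast cell genes and did not pass. Il5ra, Ccr3, Epx and Prg2, the other eosinophil genes of the group, were not tested.

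**Figure D2:**
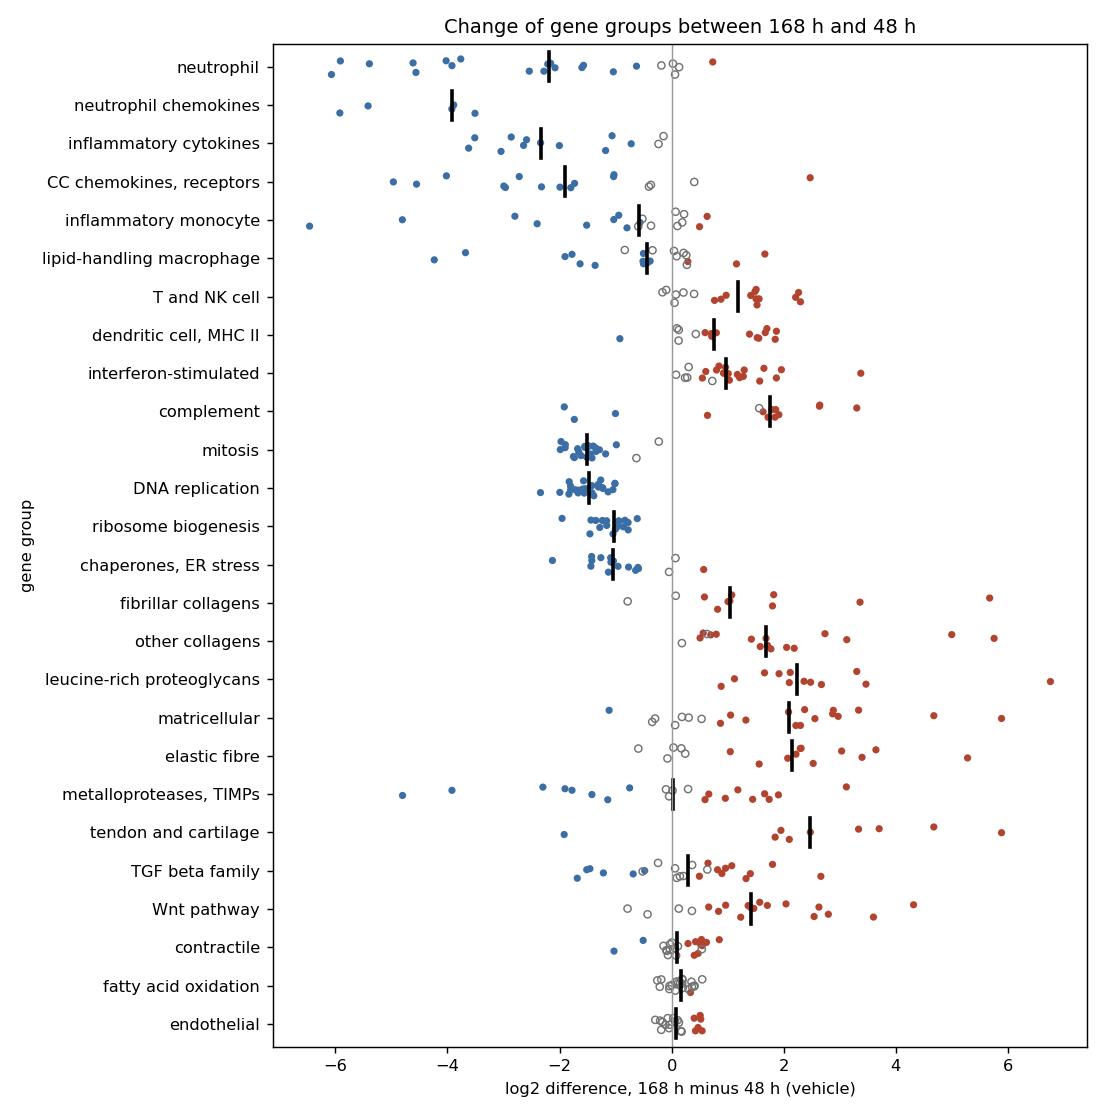
Log2 difference (168 h minus 48 h, vehicle) of each tested member of 26 gene groups; filled points passed an adjusted p of 0.05 (red higher and blue lower at 168 h), open points did not, and the bar is the median of the group. DNA replication lies wholly below 0 and the small leucine-rich proteoglycans wholly above it, while fatty acid oxidation lies around 0.

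The matrix of the scar was the other large block of change, and here most genes rose. Of 11 fibrillar collagen genes 9 rose and none fell, with a median of 1.04. The collagen I chains, already high at 48 h, rose about 2-fold. Col1a1, a chain of collagen I, the main scar collagen, stood at 7.03, 7.02, 7.05 and 7.31 in the 168 h hearts, against 6.27, 6.08, 5.94 and 5.83 in the 48 h hearts. The groups did not overlap, with a log2 difference of 1.07 ± 0.15 (SE, adjusted p = 4.86e-06). Its partner chain Col1a2 rose by 1.01 and Col3a1 by 0.59. The minor fibrillar chain Col11a1, which nucleates fibrils in cartilage, stood at 1.21, -0.13, 0.64 and 1.27 in the 168 h hearts, against -4.24, -5.09, -5.29 and -5.09 in the 48 h hearts. Its brightest probe was well above background on all arrays at 168 h and on none at 48 h, where the other probe tested was so on 1. The brightest probe was at least 40.3-fold higher at 168 h (adjusted p = 7.81e-10), or 12.3-fold with normexp. Of 17 other collagen genes 15 rose and none fell, with a median of 1.68. Col8a2, a short-chain collagen, rose by 5.75. The fibril-associated collagens Col14a1, Col12a1 and Col16a1 rose by 3.13, 2.05 and 2.19. Col22a1, a collagen of tissue junctions, was not well above background on any array at 48 h and was at least 15.9-fold higher at 168 h (adjusted p = 2.03e-09). Among collagens of basement membranes, Col4a4, well above background on 1 of 4 arrays at 48 h, rose by 2.74, and Col18a1 did not pass (0.18).

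Enzymes that process collagen were mixed, with 10 of 22 higher, 2 lower and 10 not passing. The crosslinking oxidases Lox and Loxl1 rose by 1.17 and 1.08, the lysyl hydroxylase Plod2 by 1.36 and Adamts2, which trims procollagen, by 1.57. P4hb, a subunit of prolyl hydroxylase and a general disulfide isomerase, fell by 0.50.

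All 12 tested small leucine-rich proteoglycans rose, 11 of them by over 2-fold, with a median of 2.24. These proteins bind collagen fibrils and set their diameter. Fmod (fibromodulin) stood at 2.92, 2.43, 2.62 and 1.19 in the 168 h hearts, against -4.38, -4.28, -4.28 and -4.93 in the 48 h hearts. It was above the 75th percentile on all arrays at 168 h and far below it on all arrays at 48 h, where 3 of 4 were well above background, a 108-fold rise (log2 difference 6.76 ± 0.38 (SE, adjusted p = 1.06e-10)), or 39.6-fold with normexp. Omd (osteomodulin), also with 3 of 4 arrays well above background at 48 h, rose by 3.47, Aspn (asporin) by 3.30, Prelp by 2.67, Ogn by 2.36 and Lum (lumican) by 2.12. Dcn (decorin), which already stood high at 48 h, rose by 1.12. Chad (chondroadherin), known from cartilage, was not well above background at 48 h and was at least 2.5-fold higher at 168 h (adjusted p = 0.000399). It was 1 of 2 members of the group with no probe well above background at 48 h, which could hardly have fallen.

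Of 21 matricellular genes, which encode matrix proteins many of which signal to cells, 14 rose and 1 fell. Their median of 2.09 was 1.27 among the arrays of scan day 1 and 1.67 among those of day 2. Comp, a pentameric thrombospondin of cartilage and tendon, stood at 6.27, 5.77, 6.28 and 4.54 in the 168 h hearts, against 0.36, -0.06, -0.28 and -0.71 in the 48 h hearts. The groups did not overlap, and it was a 59.1-fold rise with a log2 difference of 5.89 ± 0.45 (SE, adjusted p = 3.06e-09). Cilp rose by 3.34, and its relative Cilp2, not well above background at 48 h, rose at least 7.39-fold (adjusted p = 1.91e-07). Thbs4 and Thbs2 rose by 2.87 and 2.88, Ccn3 by 2.97, Cthrc1 by 2.56 and Postn (periostin), a marker of activated fibroblasts, by 2.37. The member that fell was Tnc (tenascin C), a matrix protein of early wounds, lower by 1.11. Thbs1 did not pass (-0.35).

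Genes of elastic fibres rose in 11 of 16, with a median of 2.15 and none lower. Eln (elastin) stood at 4.32, 3.68, 3.87 and 3.12 in the 168 h hearts, against -1.53, -1.49, -1.54 and -1.57 in the 48 h hearts. The replicates at 48 h lay close together and far below those at 168 h, and the log2 difference was 5.28 ± 0.32 (SE, adjusted p = 2.61e-10). Mfap4 rose by 3.65, Fbln5, which is needed to assemble elastin, by 3.40 and Ltbp2 by 2.30. Matrix proteases and their inhibitors divided evenly, with 9 of 21 higher and 8 lower. Mmp2, the gelatinase of stromal cells, rose by 3.12, and the inhibitors Timp2 and Timp3 by 1.66 and 1.91. Mmp3 (stromelysin) fell by 2.30, Timp1 by 1.42, Adamts4 by 1.90 and Mmp9, the gelatinase of neutrophils, by 4.80 with 2 of 4 arrays at 168 h well above background.

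**Figure D3:**
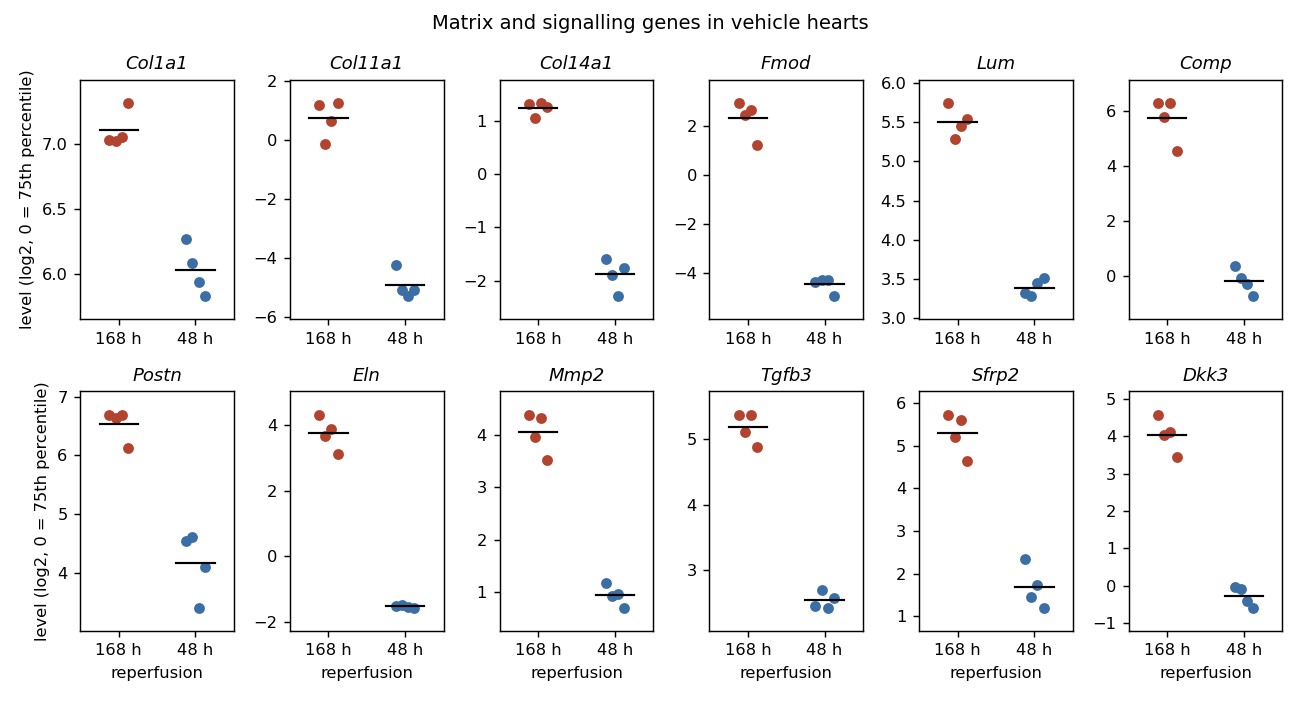
Level (log2 signal relative to the array's 75th percentile) of 12 matrix and signalling genes in each vehicle heart, 168 h left of 48 h; each point is 1 heart and the line is the mean of 4. In Fmod and Comp the groups are more than 4 log2 units apart, whereas Col1a1, high in both groups, rose by 1.07.

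Genes of myofibroblasts moved both ways. Of 16 myofibroblast genes 7 rose and 4 fell. Lrrc15, a marker of matrix-producing myofibroblasts, was at least 11.3-fold higher at 168 h (adjusted p = 3.03e-05), being not well above background on any array at 48 h. Itga11, a collagen receptor, rose by 2.45, Fap by 1.32 and the transcription factor Meox1 by 1.09. Adam12 fell by 1.90. Acta2, the smooth muscle actin that defines myofibroblasts, had means of 5.58 ± 0.19 (SD, n = 4) at 168 h and 5.43 ± 0.08 (SD, n = 4) at 48 h by its brightest probe and did not pass (log2 difference 0.15 ± 0.10 (SE, adjusted p = 0.212)), but its other two probes tested were lower and passed, at -0.75 for the lower of them. The brightest probe passed as higher with quantile normalization (0.40, adjusted p = 0.000689), with array weights (0.24, adjusted p = 0.0296) and without replicate 1 at 168 h (0.23, adjusted p = 0.0424). Tagln, another contractile gene, did not pass (0.16). Of 9 tendon and cartilage genes 8 rose and 1 fell, with a median of 2.47. Chad, Cilp2 and Tnmd, 3 of the 8, were not well above background on any array at 48 h, so a fall could hardly have been seen for them. Scx and Sox9, the transcription factors of tendon and cartilage precursors, rose by 1.85 and 1.95 and Acan (aggrecan) by 2.47. For Tnmd, a membrane protein of tendon, the rise was at least 2.8-fold (adjusted p = 1.73e-08). Prg4 (lubricin) fell by 1.92. Of 15 genes of resting fibroblasts 11 rose and 2 fell. Abi3bp rose by 3.92, Pi16 by 2.10, Dpt by 1.90 and the fibroblast transcription factor Tcf21 by 1.5, and Cxcl14 fell by 1.17.

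The ligands of the TGF beta family did not move together. Of 24 genes of the family and its targets 10 rose and 6 fell. Tgfb3 stood at 5.37, 5.12, 5.38 and 4.89 in the 168 h hearts, against 2.44, 2.69, 2.42 and 2.57 in the 48 h hearts. The groups were separated by more than 2 log2 units, with a log2 difference of 2.66 ± 0.14 (SE, adjusted p = 5.9e-11). Tgfb1 fell slightly, with means of 0.33 ± 0.17 (SD, n = 4) at 168 h and 0.81 ± 0.10 (SD, n = 4) at 48 h and a log2 difference of -0.48 ± 0.10 (SE, adjusted p = 0.0003), and Tgfb2 did not pass (-0.24). Inhba, the activin A subunit, fell by 1.52, whereas Bmp4 rose by 1.40. The median of the family was 0.55 among the arrays of scan day 1 and -0.000562 among those of day 2. Of 19 Wnt pathway genes, most of them modulators, 15 rose and none fell, with a median of 1.41. Dkk3 rose by 4.32, and the secreted Frizzled-related proteins Sfrp2, Sfrp1 and Frzb, which bind Wnt ligands, by 3.60, 2.80 and 2.63. Nkd1, an intracellular inhibitor and itself a target of the pathway, rose by 1.47.

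Genes of heart muscle and endothelium had medians near that of all genes. Of 22 contractile and structural genes of cardiomyocytes 9 rose and 2 fell, with a median of 0.096. Ckm, muscle creatine kinase, rose by 0.85, and Cryab, a small heat shock protein of muscle, fell by 1.03. Myh6 did not pass (-0.07). Of 22 genes of fatty acid oxidation 1 rose and none fell, and of 24 genes of oxidative phosphorylation and the citric acid cycle 2 rose and none fell, where 53.3% of all genes passed. With quantile normalization 8 genes of fatty acid oxidation and 14 of oxidative phosphorylation rose, and without replicate 1 at 168 h 8 of each did. Among 10 genes of the fetal and stretch programme 4 rose and 3 fell. Acta1, skeletal actin, rose by 1.66 and Myl4, an atrial light chain, by 1.07. Nppb, the B-type natriuretic peptide, fell by 0.66 and Xirp1, an actin-binding protein of intercalated discs, by 1.10. Myh7, the slow myosin heavy chain, stood at 7.86, 7.04, 7.98 and 5.96 in the 168 h hearts, against 5.65, 5.88, 5.74 and 6.03 in the 48 h hearts. Replicate 4 at 168 h lay within the range of the 48 h hearts and the other three lay above it, with a log2 difference of 1.39 ± 0.38 (SE, adjusted p = 0.00454), which did not pass with the slide as a block.

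Of 20 endothelial genes 6 rose and none fell, with a median of 0.084, and Pecam1, a surface protein of all endothelium, did not pass (-0.11). Of 14 genes of smooth muscle and pericytes 6 rose and 1 fell, including Rgs5, a pericyte marker (0.94), and Mcam (-0.63). Of 6 lymphatic genes 4 rose, and Pdpn (podoplanin), which inflamed fibroblasts and macrophages also carry, fell by 1.68. Among 10 genes of the epicardium and mesothelium 6 rose and 1 fell. For 2 of the 10, no probe was well above background on any array of 1 of the times. The mean level of the group was -0.37, -2.65, -1.67 and -1.82 in the 168 h hearts. In the 48 h hearts it was -1.98, -2.99, -2.50 and -3.26, so the groups overlapped. The member that fell was Aldh1a2, the retinoic acid synthase of epicardium, by 2.48. Genes of neighbouring tissues could be carried along. Of these, none of 6 adipocyte genes passed, 1 of 3 lung epithelial genes fell and 1 of 6 skeletal muscle genes rose. Main markers were missing: Adipoq and Plin1 of adipocytes and the surfactant genes Sftpc, Sftpa1, Sftpb and Sftpd of lung were not tested. Nor were Myh1, Myh2, Myh4 and Actn3 of skeletal muscle.

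Genes outside the groups also moved by large amounts. C1qtnf3, a secreted protein of the C1q and TNF family known from cartilage, stood at 3.19, 3.33, 3.01 and 2.43 in the 168 h hearts, against -5.67, -4.72, -4.68 and -4.51 in the 48 h hearts. It was well above background on 1 of 4 arrays at 48 h and on all at 168 h, so that the size of its rise rests on dim signals. The log2 difference was 7.88 ± 0.29 (SE, adjusted p = 3.32e-13), or 5.86 with normexp, and all 3 of its probes rose. Zfp185, well above background on 1 of 4 arrays at 48 h, rose by 6.16 and Ecrg4 by 6.03. Matn4, a matrilin of cartilage matrix, rose by 5.41 and Pamr1 by 5.0. Angptl7, a secreted protein of matrix-rich tissues such as cornea and tendon, rose at least 20.8-fold (adjusted p = 5.61e-08), Cemip, which breaks down hyaluronan, at least 18.7-fold (adjusted p = 1.61e-09) and Cyp26a1, which degrades retinoic acid, at least 7.19-fold (adjusted p = 1.01e-09). With normexp these 3 rose 9.18-fold, 7.08-fold and 3.56-fold. Among the largest decreases outside the groups were Crct1 (-6.07), Cstdc4 (-5.67) and Stfa2l1 (-5.11), of which Cstdc4 and Stfa2l1 encode stefin-type protease inhibitors. At 168 h the 3 genes were well above background on 2, 1 and 2 of 4 arrays. Mirt2, a long noncoding RNA known as an infarct-associated transcript, fell by 4.50, with 1 of 4 arrays at 168 h well above background. Entpd3, an enzyme that cleaves extracellular ATP, was at least 6.86-fold lower (adjusted p = 6.02e-09).

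Vehicle hearts at 24 h were used to place the levels at 48 h and 168 h in time, as a description. The mean level of the DNA replication group over its genes ranged over the 4 hearts from 0.84 to 1.38 at 24 h, 1.31 to 1.64 at 48 h and -0.09 to 0.18 at 168 h. That of the mitosis group ranged from -1.98 to -0.13 at 24 h, 0.85 to 1.31 at 48 h and -0.62 to 0.10 at 168 h, and its 4 hearts at 48 h lay above those of both other times. Neutrophil genes ranged from 0.78 to 1.35 at 24 h, 0.29 to 0.86 at 48 h and -2.87 to -0.73 at 168 h. The small leucine-rich proteoglycans ranged from -1.65 to -1.12 at 24 h, -0.54 to -0.30 at 48 h and 1.70 to 2.47 at 168 h, rising at each step without overlap.

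**Figure D4:**
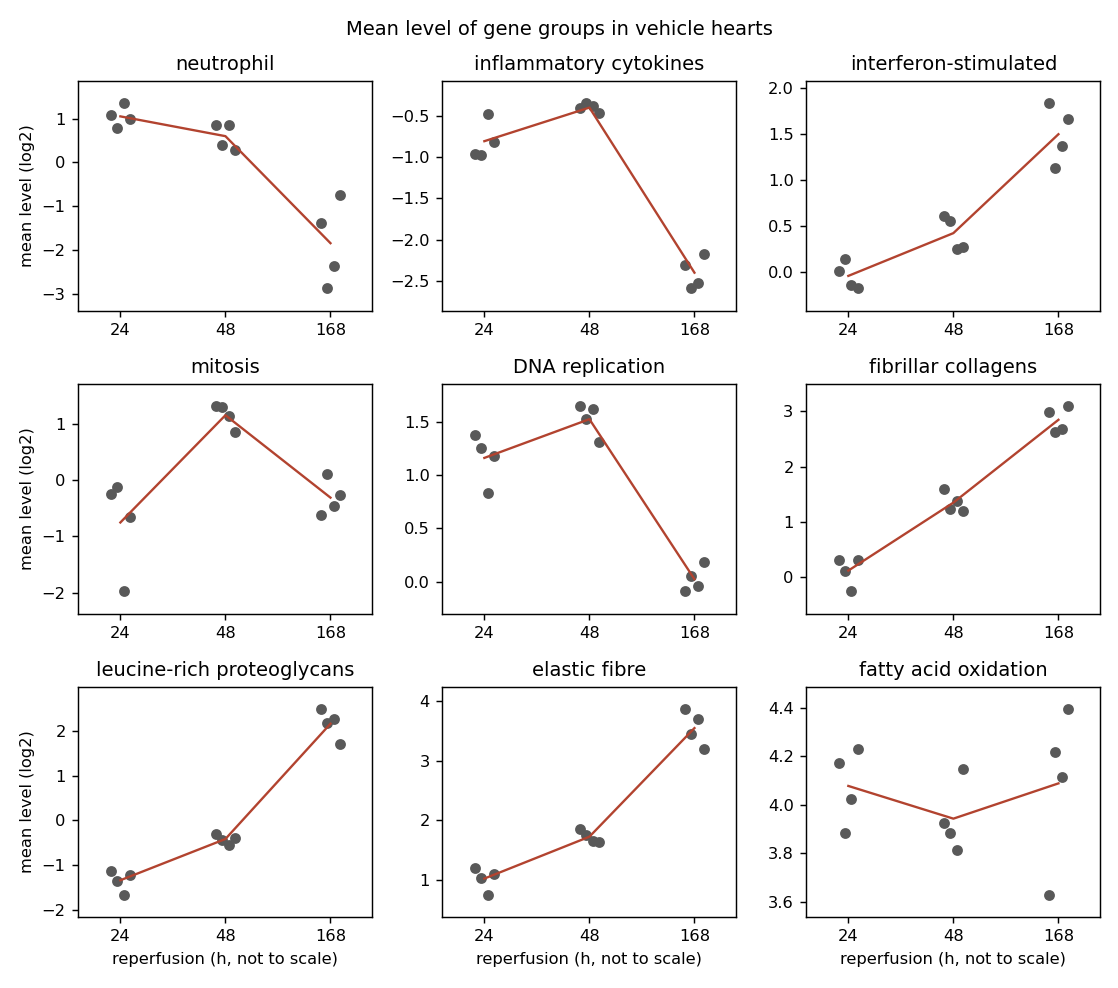
Mean level over the genes of 9 gene groups (log2 signal relative to the array's 75th percentile) in the vehicle hearts at 24, 48 and 168 h; each point is 1 heart and the line joins the means of 4. Mitosis and DNA replication are highest at 48 h, neutrophil genes are lowest at 168 h, and the matrix groups are highest at 168 h.

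Hearts of mice given IGF1 were set against vehicle hearts to ask whether the change between 48 h and 168 h differed with treatment. The IGF1 hearts entered the vehicle comparison through the shared estimate of the spread, the filter on dim probes and the choice of the brightest probe. With the filter on the 8 vehicle arrays, 15080 genes were tested, and 4015 were higher and 4260 lower at 168 h. Of the 8459 genes called in vehicle hearts, 8300 (98.1%) changed in the same direction in IGF1 hearts, and across all 15875 genes, which are not independent replicates, the changes correlated at 0.915. No gene passed the test of the difference between the 2 changes (limma, smallest adjusted p = 0.156), while 1095 genes had an unadjusted p under 0.05. With array weights, 42 genes passed. The medians of matrix groups lay close together, at 2.13 in IGF1 hearts and 2.24 in vehicle hearts for the small leucine-rich proteoglycans and at 2.03 in IGF1 hearts and 2.15 in vehicle hearts for the elastic fibres. The inflammatory cytokines had a median change of -0.64 in IGF1 hearts and -2.34 in vehicle hearts, and none of the 13 passed the test of the difference. Il6 changed by -0.94 in IGF1 hearts and by -3.51 in vehicle hearts, a difference of 2.57 with an adjusted p of 0.156. Spp1 changed by -1.31 in IGF1 hearts and by -4.23 in vehicle hearts (difference 2.92, adjusted p = 0.189). For interferon-stimulated genes the medians were 0.51 in IGF1 hearts and 0.96 in vehicle hearts, with no member passing the test of the difference.

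**Figure D5:**
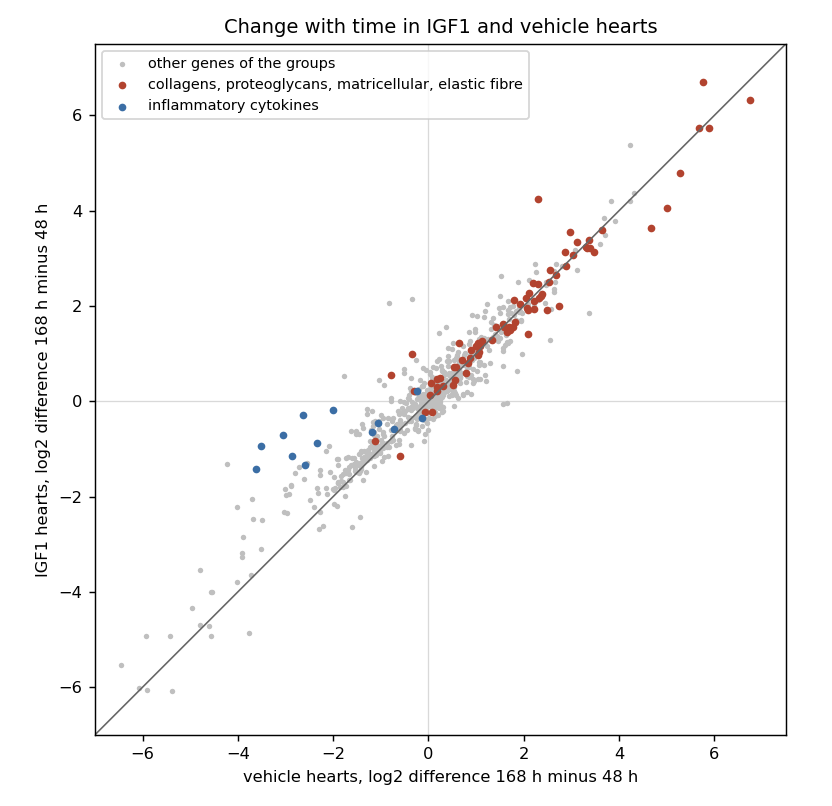
Log2 difference between 168 h and 48 h of the 734 tested genes of the groups, in IGF1 hearts (vertical axis) against vehicle hearts (horizontal axis); each point is 1 gene and the line marks equal changes. Matrix genes lie near the line and most inflammatory cytokines lie above it, though no gene passed the test of the difference.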

How the data were processed

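Total RNA of 24 hearts was hybridised by the authors to 1-colour Cy3 arrays of a mouse gene expression design, 1 array per sample. Per the file headers, the images were read with Feature Extraction 12.0.3.2 on an array grid of build mm9, and the deposited scanner files give a spot's intensity after background subtraction (processed signal) with flags. The authors also deposited a table of log2 values of 33957 probes, whose scaling and centring are unstated. Differences between arrays in this table correlated at 0.99986 or more with those of the scanner values, so it holds the same measurements centred per probe, and its column medians ran from -0.0557 to 0.0527. It was used as an alternative.

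Control spots and the 53 to 130 spots of an array with outlier flags were left out, spots of a probe were averaged, and log2 of the array's 75th percentile of the signal was subtracted. No spot was saturated. Probes well above background on fewer than 4 of 24 arrays were left out. Of 56605 probes, 33767 (59.7%) took 1 symbol through the RefSeq accession in the scanner files and the RefSeq gene table of build GRCm38.p6, and the others were unnamed here. The brightest kept probe stood for a gene. Of 34463 probes tested, 15485 (44.9%) passed, among 5925 genes with several kept probes 112 called genes had probes called both ways, and 24 genes lacked a value on some array, which the fit dropped.

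limma 3.58.1 in R 4.3.3 was fitted over 24 arrays with 1 mean per group (18 residual degrees of freedom), with two-sided p-values, adjusted by Benjamini-Hochberg over all genes tested, and a threshold of 0.05. The number of arrays limits the precision. The steps were tested on simulated data. As alternatives, the background was corrected by normexp (offset 50) and the following were tried: quantile normalization, other filters, the mean of probes, fewer arrays, slide, scan day or replicate number as a block, array weights, the authors' table and leaving out each array. The scan day was chosen after seeing the data. Windows of 300 bases around gene starts came from RefSeq.

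The members and the 48 gene groups (786 genes, 734 tested) were chosen with earlier results of these data known. Genes were named by a rule: the 20 largest increases and 20 largest decreases among called genes whose groups did not overlap, up to 6 members of a group with the smallest p, the member that moved most against its group's median, 30 genes listed beforehand, and the 10 smallest p of the difference between IGF1 and vehicle. Only some of these are given, and these, like the other group members named, were chosen after their values were seen. Some genes are not reported here.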

Additional observations from a re-analysis of the deposited data

Results flagged for a closer look

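In each group of 4 hearts, the sample at either end was set against the other three, and it was marked where its distance to the nearest of them as a share of the range exceeded Dixon's critical value. Of 416 groups of 4 values examined for the named genes, 19 (4.57%) were marked, and chance alone marks about 1 in 20. The marks were not spread evenly: 8 fell on replicate 4 at 168 h and 6 on replicate 4 at 48 h. Both arrays lay on slide 4, and the part of the slide was not tested. The values below are log2 levels, each followed by the range of the other three hearts of its group. Replicate 1 at 168 h stood apart for Lgals3 (4.86, against 4.25 to 4.32) and Ctsk (4.09, against 3.27 to 3.31). Replicate 4 at 168 h stood apart for Lyve1 (-0.61, against -1.86 to -1.72), Fosl1 (-7.36, against -5.83 to -5.71), Col1a1 (7.31, against 7.02 to 7.05) and Col12a1 (0.80, against 1.29 to 1.35). Replicate 4 at 168 h also stood apart for Cilp (4.10, against 4.81 to 4.83), Postn (6.12, against 6.63 to 6.70), Sox9 (0.32, against 1.43 to 1.57) and Cyp26a1 (-3.12, against -1.55 to -1.30). Replicate 1 at 48 h stood apart for Thbs2 (-0.23, against -0.62 to -0.58). Replicate 3 at 48 h stood apart for H2-Aa (0.57, against 0.73 to 0.74) and Col22a1 (-6.22, against -5.53 to -5.44). Replicate 4 at 48 h stood apart for Cxcl3 (-0.24, against 0.18 to 0.23), Adgre1 (2.79, against 3.16 to 3.17), Nkg7 (-3.60, against -3.30 to -3.25) and Mki67 (2.78, against 3.19 to 3.27). Replicate 4 at 48 h also stood apart for Fmod (-4.93, against -4.38 to -4.28) and Adamts4 (3.42, against 3.91 to 3.94).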

How the results depend on the processing

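The counts of genes called stayed within 1.5 times the reported ones under each of the 19 alternatives, from 3064 higher (slide as a block) to 4490 (quantile normalization) and from 3723 lower (the 8 arrays alone) to 4530 (array weights). Leaving out 1 array gave 3702 to 4284 higher and 3954 to 4242 lower. Of the 193 called genes named in the text, 188 were called under every alternative and none turned. Sizes moved more than calls: with normexp, whose offset draws dim signals together, 43 of the 193 were smaller by over 1.5 times and none larger, among them Cxcl2 (-1.55), Cxcl3 (-3.45), Jchain (1.70), Cilp2 (1.82) and Entpd3 (-1.66, as log2 differences). With the slide as a block 16 were smaller and 1 larger by over 1.5 times, with array weights 2 smaller and 9 larger, with the mean of probes 5 smaller, and without replicate 4 at 168 h 10 larger. Of 75 counts of gene group members called in 1 direction, 28 moved by over 1.5 times under some alternative, among them smooth muscle genes (10 higher with quantile normalization, 6 reported), contractile genes (4 higher with the slide as a block, 9 reported) and endothelial genes (3 higher with the slide as a block, 6 reported). The test of the difference between IGF1 and vehicle gave 42 genes with array weights and 0 to 1 when 1 vehicle array was left out, and the cause was not tested. Saa3 turned with array weights (-1.69) and without replicate 1 (-1.13) or replicate 4 (-0.75) at 168 h, with a range of -1.13 to 1.59 when 1 array was left out. Acta2, which did not pass, passed downward with the mean of its probes (-0.39) and upward with quantile normalization (0.40), array weights (0.24) and without replicate 1 at 168 h (0.23). Myh6, at -0.07 in the report, was 0.066 with the mean of probes, 0.025 with array weights, 0.0075 without replicate 1 at 168 h and 0.027 without replicate 4 at 48 h, with a range of -0.17 to 0.027 when 1 array was left out. Replicate numbers did not pair the samples: the deviations of samples with the same number from their group means correlated at 0.193, 0.0766, -0.0432 and 0.200, and the replicate block gave 4376 genes higher and 4451 lower, and 0 for the difference between IGF1 and vehicle. Genes below background have only a bound, and fold changes near background are uncertain.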
